A study of Drosophila melanogaster with 2 samples.

Results

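The MADF and BESS domain genes examined here are 7 genes of Drosophila melanogaster, chosen by family membership, with earlier results of these data known: hng1, hng2, hng3, Adf1, jigr1, Dip3 and stwl. They are 7 of 13968 protein-coding genes on the main chromosome arms. All 7 were found in the annotation, Dip3 under its current symbol Dlip3. The question was where GFP-tagged hng2 protein was found at the genes of its own family, each taken with 2 kb to each side (the gene window). The data are ChIP-seq peak lists (sites where fragments of chromatin pulled down with an antibody pile up) from whole embryos of mixed sex aged 0 to 14 h. All embryos came from 1 transgenic line, CG8359-GFP, which carries a C-terminal GFP fusion of CG8359, now called hng2. There was 1 group with 2 biological replicates, numbered 2 and 3, both with the transgene, and no group without it among the samples. By the sample description the antibody was against GFP, although the antibody entry reads CG8359. A whole embryo mixes all cell types and many stages, so a peak cannot be given to a cell type or a time within those hours.

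The MADF domain is a DNA-binding fold related to the Myb and SANT domains and was named after Adf1. The BESS motif, named after BEAF, Stwl and Su(var)3-7, binds proteins and lets family members join with themselves or with each other. The family is much expanded in flies. Its members act as transcription factors or chromatin proteins in settings from the wing hinge, for which hinge1 to hinge3 (hng1 to hng3) are named, to the synapse and the ovary.

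As a check of the label, the longest translated protein of each member was compared with all fly proteins (phmmer, E-value of at most 1e-05). The search linked 6 of the 7 to at least 2 other members. The exception was the tagged protein itself. With hng2 as the query (254 residues) no other member passed, and its closest one was Adf1, with an E-value of 0.0023. Its closest fly protein was CG4404, at 2.9e-05. Adf1 (262 residues) and jigr1 (336 residues) each found 4 other members and stwl, the longest at 1037 residues, found 2.

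Of 4 peak lists, 3 were relaxed lists of 30000 peaks each, called in replicate 2, in replicate 3 and in both pooled. By its label the pooled relaxed list holds background as well as peaks. The authors' -log10 q reached down to 0.108 in it, 0.119 in replicate 2 and 0.229 in replicate 3. A relaxed summit alone is therefore not taken as a binding site. The optimal list held the 3170 peaks that passed the authors' test of reproducibility between replicates, and these were also the 3170 of highest signal in the pooled list. Peaks were ranked by signal within each list, with rank 1 the highest, since signals are not scaled between lists. A peak ranked 3170 or better is called strong here. The lists give no read counts, so the depth behind a value is unknown.

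Sequence is shown for 1 strong site in hng3 and 2 in jigr1, a choice that leaves out the strongest site, in Adf1. The site next to stwl is shown because it lay just below the limit and between a pair of family genes. Each line gives 200 bases of dm6, plus strand, centred on the summit. In the hng3 line the capitals mark the part that is coding exon, and in the others they mark matches to the 9 motifs searched. The first jigr1 line and the stwl line held no match. The window at hng2 is not shown because it lies in a 3' UTR, and those at Adf1 are not shown.
hng3 (chr3L:738831-739030): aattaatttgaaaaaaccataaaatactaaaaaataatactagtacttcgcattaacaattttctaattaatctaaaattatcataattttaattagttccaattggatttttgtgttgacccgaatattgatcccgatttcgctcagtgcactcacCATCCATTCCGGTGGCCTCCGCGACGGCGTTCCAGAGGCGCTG
jigr1 first site (chr3R:25640524-25640723): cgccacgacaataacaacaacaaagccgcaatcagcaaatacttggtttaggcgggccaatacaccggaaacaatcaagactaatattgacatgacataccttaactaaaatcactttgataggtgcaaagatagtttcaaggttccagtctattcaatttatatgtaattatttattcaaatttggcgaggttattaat
jigr1 second site (chr3R:25646905-25647104): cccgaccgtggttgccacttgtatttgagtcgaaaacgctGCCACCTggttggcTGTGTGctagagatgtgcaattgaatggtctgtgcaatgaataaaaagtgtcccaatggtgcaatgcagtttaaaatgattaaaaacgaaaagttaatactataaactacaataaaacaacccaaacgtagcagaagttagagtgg
stwl upstream site (chr3L:14410121-14410320): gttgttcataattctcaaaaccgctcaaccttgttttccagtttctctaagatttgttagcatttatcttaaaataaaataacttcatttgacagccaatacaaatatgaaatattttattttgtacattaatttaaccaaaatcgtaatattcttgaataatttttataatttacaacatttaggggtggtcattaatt

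Strong sites were found at 4 of the 7 genes. Adf1 and jigr1 each had 2 summits of the optimal list in their windows, and hng2 and hng3 had 1 each, 6 summits in all. The 2 Adf1 peaks overlapped (6662943 to 6663196 and 6663151 to 6663550), so they may not be separate sites. The authors' -log10 q of these 6 peaks was 2.49 to 3.25, where 3.25 is the highest value in the list. None was found at hng1, Dip3 or stwl. Of all protein-coding genes, 21.5% had an optimal summit in a window drawn the same way. That share depends on the length of the window, and the windows of hng3 (21810 bp), jigr1 (18032 bp) and Adf1 (9821 bp) were longer than the median of 6164 bp, while that of hng2 (5260 bp) was shorter. Per 10 kb the member windows held 0.782 optimal summits, and 0.699 without hng2, against 0.269 over the windows of all protein-coding genes. The difference was not tested, since the members were chosen with results of these data known.

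The replicates, each taken with its own 3170 strongest peaks, placed strong summits at 5 members (replicate 2) and 3 members (replicate 3), 4 ± 1.41 (SD, n = 2). The background shares were 22.2% and 20.7% of genes. Adf1, hng2 and hng3 were in both. Replicate 2 also held jigr1 and stwl, and replicate 3 held no further member.

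**Figure D1:**
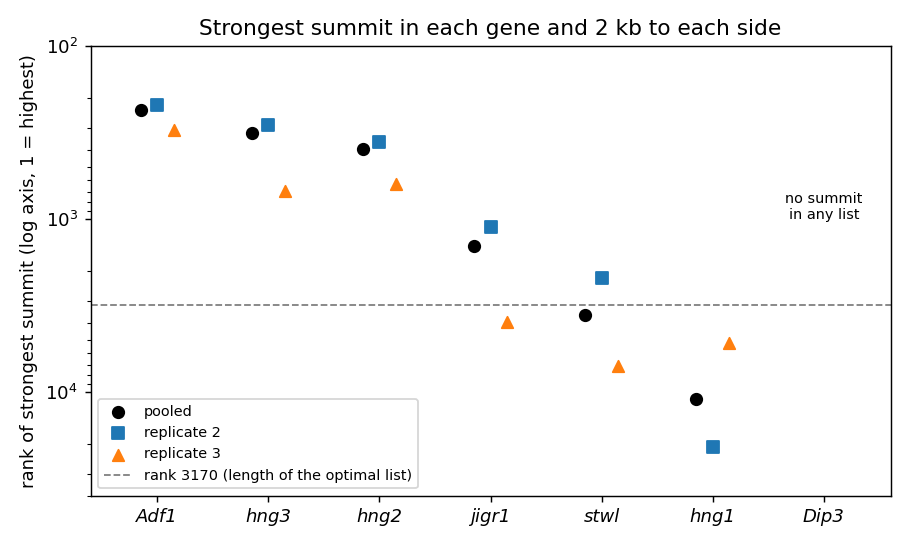
Rank by signal of the strongest summit in each gene and 2 kb to each side (log axis, with rank 1 at the top) in the pooled list and in each replicate, with a dashed line at rank 3170. Adf1, hng3 and hng2 lie above the line in all 3 lists, jigr1 and stwl lie on both sides of it, hng1 lies below it, and Dip3 had no summit to plot.

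The order of the genes by their strongest pooled summit was Adf1 (rank 234), hng3 (317), hng2 (393), jigr1 (1429), stwl (3588) and hng1 (11017). In replicate 2 it was the same order, with ranks of 221, 285, 360, 1112, 2213 and 20829. In replicate 3 the ranks were 306 for Adf1, 695 for hng3, 630 for hng2, 3933 for jigr1, 7073 for stwl and 5230 for hng1. Next to each other in rank, hng3 and hng2 therefore changed places between the replicates, and so did stwl and hng1. The first 4 genes and stwl ranked higher in replicate 2 than in replicate 3, and hng1 ranked lower.

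Adf1 (FBgn0284249, chr2R:6662265-6668085, plus strand), a transcription factor first known as an activator of the alcohol dehydrogenase gene Adh and later for synapse growth and memory, had the strongest site of the 7. Its summit lay at 6663105, in an intron of Adf1, 835 bp downstream of the nearer of its 2 transcription start sites (TSSs). The signal there was 682 in the pooled list, 502 in replicate 2 and 183 in replicate 3, each on the scale of its own list. The replicate summits were 4 bp (replicate 2) and 0 bp (replicate 3) from the pooled one, so both replicates held this site at nearly the same base. Of all protein-coding genes, 2.22% had a pooled summit as strong in their windows, a share that also depends on the length of the window.

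A second Adf1 summit at 6663351 had a signal of 154 and rank 2631, the lowest of the 6. It lay 844 bp from the TSS of lncRNA:CR45128, which is nearer than any TSS of Adf1. Replicate 3 held it at rank 1949 and replicate 2 at rank 3517, outside its strongest. The TSS of Adf1 itself was weaker than the intron. Its pooled summit, 122 bp upstream, ranked 3659, with 4261 for the summit 197 bp upstream in replicate 2 and 1745 for the summit 25 bp upstream in replicate 3. Dpit47, which encodes a cochaperone of Hsp90, starts 147 bp away on the other strand, so these summits could be given to either gene.

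hng3 (FBgn0035160, chr3L:737680-755489, minus strand) had its strong summit at 738931, in an intron 418 bp downstream of the TSS of its shorter transcript. Its other TSS lay 16558 bp upstream of the summit. The signal was 549 in the pooled list, 428 in replicate 2 and 116 in replicate 3, at ranks 317, 285 and 695, and the replicate summits were within 18 bp and 45 bp. The peak was 185 bp wide, against a median of 400 bp in the optimal list. It reached from the intron into the coding exon whose bases are in capitals above.

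hng3 also held many weaker summits, with a -log10 q of 0.119 to 1.74 in the pooled list, so some may be background. Its window had 18 in the pooled list, 8.25 per 10 kb, and 2.75% of protein-coding genes had as many per length. Replicate 2 had 15 (6.88 per 10 kb) and replicate 3 had 22 (10.1 per 10 kb). Such density was not particular to hng3. The window of hng2 held 7.6 per 10 kb in the pooled list, 5.7 in replicate 2 and 13.3 in replicate 3. The gene emc (extramacrochaetae), which encodes an inhibitor of proneural bHLH factors, lies on the other strand inside hng3. A summit 34 bp from a TSS of emc ranked 2189 in replicate 3, another 1351 bp from it ranked 2816 there, and the pooled summit 38 bp from the TSS ranked 4146. In replicate 2 the summit at that place ranked 26338. Replicate 2 instead held a strong summit 700 bp downstream of the upstream TSS of hng3, at rank 2837, which ranked 3755 in the pooled list and 9602 in replicate 3 (779 bp downstream). Of the 17 weaker pooled summits of hng3, 7 had a summit within 100 bp in both replicates, 3 in replicate 2 alone and 7 in replicate 3 alone. The shares over all weaker pooled summits are not given here. Among the 7 shared ones was the summit at 736183, which ranked 3375 in replicate 2 and 5696 in replicate 3.

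**Figure D2:**
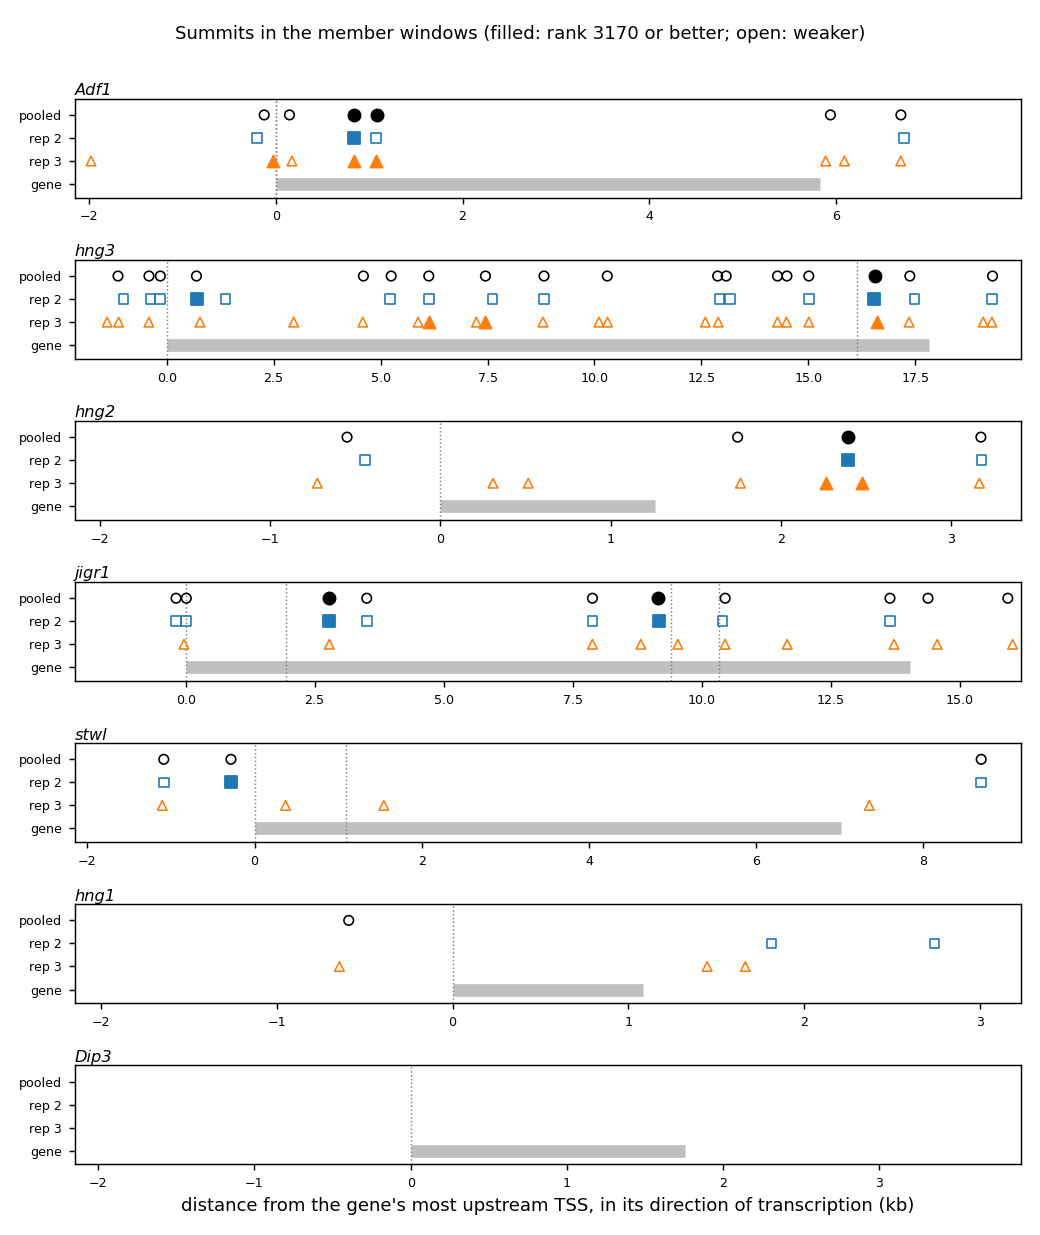
Positions of all summits in the gene windows, as the distance in kb from the most upstream TSS in the direction of transcription, for the pooled list and each replicate. Filled symbols are ranked 3170 or better in their list and open symbols are weaker, grey bars are the genes and dotted lines their TSSs; filled symbols stand together in all 3 lists in Adf1, hng3 and hng2, and in the pooled list and replicate 2 alone in jigr1.

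hng2 (FBgn0037634, chr3R:8806322-8807581, plus strand) is the gene of the tagged protein. Its strong summit, at 8808720, was not in hng2 but 1139 bp past its 3' end, in the 3' UTR of CG9837, a gene on the other strand. The nearest TSS was 1091 bp away and belonged to CG9837. The signal was 486 in the pooled list, 369 in replicate 2 (rank 360, 5 bp away) and 83.8 in replicate 3 (rank 1404, 83 bp away), where a second summit at 8808591 ranked 630.

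At the start of hng2 both replicates were weak. The nearest pooled summit, 549 bp upstream, ranked 12741 and lay 29 bp from the TSS of CG9839. In replicate 2 a summit 444 bp upstream ranked 11348. Replicate 3 had a summit 309 bp downstream, in the intron of hng2, at rank 5121. A stronger one in replicate 3, 724 bp upstream and 1 bp from the TSS of CG9839, ranked 3467. No list held a summit ranked 3170 or better within 500 bp of the hng2 TSS.

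The transgene may add copies of hng2 sequence, so peaks at this gene may hold signal from extra template. How far the transgene reaches on either side is not given in the sources used here. Relaxed summits, which may include background, were dense over a stretch wider than the gene. In the 30 kb centred on the hng2 TSS there were 24 summits in the pooled list, 18 in replicate 2 and 30 in replicate 3, against a mean of 6.73 per 30 kb over the main arms without the Y. Bins with as many made up 1.97%, 4.04% and 0.852% of all bins. In bins of 10 kb the counts in replicate 3 were 7, 12 and 11 from -10 kb to +10 kb and fell to 3 on either side, with 9 and 8 again at +40 kb and +80 kb. Stronger summits than that of the gene window lay just outside it in introns of CG9837, at 8810619 (rank 266) and 8811713 (rank 91). Whether extra template has a part in these values was not tested.

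**Figure D3:**
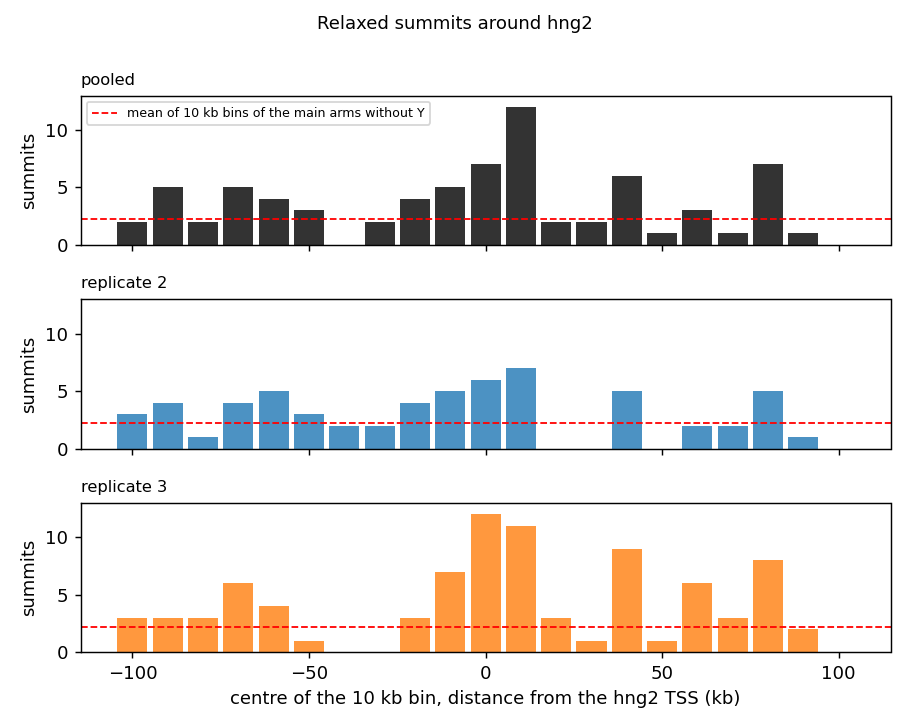
Number of relaxed summits in each 10 kb bin up to 100 kb to either side of the hng2 TSS, in the pooled list and in each replicate, with the mean of all 10 kb bins of the main arms without the Y (2.24) as a dashed line. The bins at 0 kb and +10 kb hold 7 and 12 pooled summits, 6 and 7 in replicate 2, and 12 and 11 in replicate 3, all above the mean.

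jigr1 (FBgn0039350, chr3R:25637843-25651874, plus strand), named as a gene that interacts with the CNS midline and tracheal regulator jing, hosts the microRNA genes mir-92a and mir-92b. Its first strong summit, at 25640624, lay in an intron 831 bp downstream of the nearest TSS. Its signal was 229 in the pooled list (rank 1429), 174 in replicate 2 (rank 1242, 5 bp away) and 53.3 in replicate 3 (rank 3933, 4 bp away). Both replicates held this site at nearly the same base, but of the replicates it was strong in replicate 2 alone.

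The second jigr1 summit, at 25647005, was 241 bp upstream of an internal TSS and 405 bp past mir-92a, with a signal of 172 and rank 2201. Replicate 2 had it at rank 1112, its best in this gene. Replicate 3 had no summit within 100 bp, and its nearest ones, at 25646667 and 25647383, ranked 4177 and 4545. The former was 67 bp from mir-92a. At the most upstream jigr1 TSS the pooled summit 186 bp before it ranked 3515, with 3527 in replicate 2 (191 bp before it) and 4724 in replicate 3 (33 bp before it).

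stwl (FBgn0003459, chr3L:14402930-14409939, minus strand), or stonewall, which germline stem cells and oocytes need, had its strongest pooled summit just below the limit. It lay at 14410221, 282 bp upstream of stwl, in an exon of lncRNA:CR45233, with a signal of 127 and rank 3588. On its other side, 405 bp away and on the opposite strand, starts CG3919, the fly protein closest to stwl (E-value 3.4e-16). The site thus lay between a divergent pair of related genes. Replicate 2 held it at rank 2213 with a signal of 116. Replicate 3 held no summit within 100 bp of it. The strongest summit of replicate 3 in the window, at 14411042 in an intron of CG3919, ranked 7073. That place also had a summit in the pooled list (14411024, rank 4949) and in replicate 2 (14411018, rank 4980). Both gene windows hold these summits, so their values for the pair are not independent.

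Near the limit of the optimal list, the weakest member summit inside it was that of Adf1 at rank 2631. The strongest outside it were a pooled summit at 736183 downstream of hng3, at rank 3444 with a signal of 131, and those at the starts of jigr1 and stwl. For hng1 (FBgn0034599, chr2R:21168930-21170010, plus strand) no summit was near it. The strongest pooled one ranked 11017, and 48.1% of genes had one as strong. It lay 591 bp upstream of hng1 and 320 bp from the TSS of Isha, whose TSS is 271 bp from that of hng1. In replicate 3 a summit 644 bp upstream ranked 5230, and replicate 2 had none there.

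Dip3 (FBgn0040465, chr2R:18128494-18130246, plus strand), or Dorsal interacting protein 3, which binds the patterning factors Dorsal and Twist, had no summit in its window in any of the 4 lists. Of protein-coding genes, 21.6% had none in the pooled list, 22.4% in replicate 2 and 24.5% in replicate 3. The lists end at 30000 peaks, so weaker signal there would not have been listed. The gene for heat shock factor, Hsf, ends inside the same window.

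Some of the strong sites were near a start of the member gene. Within 500 bp of an own TSS there was an optimal summit at hng3 and jigr1 only, 2 of 7, against 10.3% of all protein-coding genes. Among genes with an optimal summit in the window, that was 2 of 4 members and 1445 of 3010 protein-coding genes. Both were at internal TSSs, and with the most upstream TSS alone the count was 0. Replicate 2 gave 3 members (hng3, jigr1 and stwl) against 10.6% of genes, and replicate 3 gave 2 (hng3 and Adf1) against 10.5%, or 2.5 ± 0.707 (SD, n = 2). By annotation, 5 of the 6 summits were in introns of the member and 1 was in the 3' UTR of a neighbour.

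Of the 6 optimal summits, 3 had a summit within 100 bp among the 3170 strongest of both replicates, the first of Adf1 and those of hng2 and hng3. Among all relaxed peaks it was 5, and the second jigr1 site was the exception, with none in replicate 3. The optimal list was itself chosen for reproducibility between these replicates. The share over all optimal summits is not given here, so these counts cannot be called high or low.

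The sites had little in common in sequence by the measures used. The GC content of the 200 bp windows was 29.5% at hng2, 35.5% at hng3, 35% and 40.5% at jigr1, and 42% and 40.5% at Adf1, on either side of the median of 36% over all optimal windows. At the stwl site it was 24.5%. The motifs searched on both strands were GAGAG (GAGA factor), CAGCTG (E-box), GCNGCNGC (GC triplets of the kind in Adf1 sites), TATCGATA (DRE), CAGGTA (Zelda), AGGNGGC (CTCF core), CGATA (BEAF-32 core, which also lies in TATCGATA), CACACA (CA repeat) and GGTCACAC (Motif 1 core, which overlaps CACACA in part).

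Of the 6 windows, 2 held CACACA, the second Adf1 site and the second jigr1 site, and 17.5% of all optimal windows did. AGGNGGC was found once, 57 bp to the left of the second jigr1 summit, and in 4.7% of all optimal windows. CGATA was found once, at the edge of the first Adf1 window, and in 23.2% of all. No member window held any of the other 6, which were in 24.3% (GAGAG), 7.95% (CAGCTG), 6.75% (GCNGCNGC), 1.45% (TATCGATA), 4.26% (CAGGTA) and 0.978% (GGTCACAC) of optimal windows. A match describes these letters in these windows and does not show that a factor was bound, and no match says nothing of the factor.

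Other genes of the family were taken from a short list, Mes2, Coop, BEAF-32 and Su(var)3-7, and from the protein search. None of the 4 on the short list had an optimal summit in its window. Coop, a corepressor of the Wnt effector Pangolin, came closest in replicate 3, with a summit at rank 1266 that lay 3369 bp downstream of its TSS, in an intron of the neighbour wech and 251 bp from a TSS of wech. Its pooled rank was 3492. The pooled ranks were 6211 for the insulator protein gene BEAF-32, 9552 for Mes2 and 13390 for the heterochromatin protein gene Su(var)3-7. Each of these 3 had that summit within 300 bp of an own TSS, at 156, 294 and 112 bp in that order, although at BEAF-32 the TSS of asRNA:CR42254 was nearer (130 bp).

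The protein search found 21 further genes, Mes2 among them, and this list was made after the peaks had been seen. Of the 21, 7 had an optimal summit in the window (33.3%) and 5 had one within 500 bp of an own TSS (23.8%), beside the 21.5% and 10.3% of all genes. The window share depends on the length of the windows, which was not taken into account for these genes. brwl (brickwall), a family gene with a part in oogenesis, had 3 optimal summits, the strongest 163 bp from its TSS in an exon of lncRNA:CR44149, with a signal of 799 and ranks of 186 (pooled), 163 (replicate 2) and 195 (replicate 3). CG5953 had 5, the strongest in its own intron, with a signal of 710 and ranks of 219, 223 and 152. Both ranked higher than any of the 7 members except that Adf1 ranked 221 in replicate 2, ahead of CG5953.

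CG9948 had a summit 12 bp from its TSS at rank 1110, Dyro 494 bp from its TSS at rank 726, and CG11723 167 bp from its TSS at rank 1650, nearer to the TSS of Tbcd. CG10949, the closest relative of Adf1, had its summit 1719 bp from its TSS at rank 2520, past its 3' end and nearest to the TSS of CG10947. CG45071 had its summit 2128 bp from its TSS at rank 3059. That summit lay in its intron and in an exon of asRNA:CR43971, whose TSS was nearest. No pooled summit was listed at CG12609, CG4404 or CG8119, and at Hmr, the hybrid male rescue gene, the strongest pooled one ranked 28224.

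**Figure D4:**
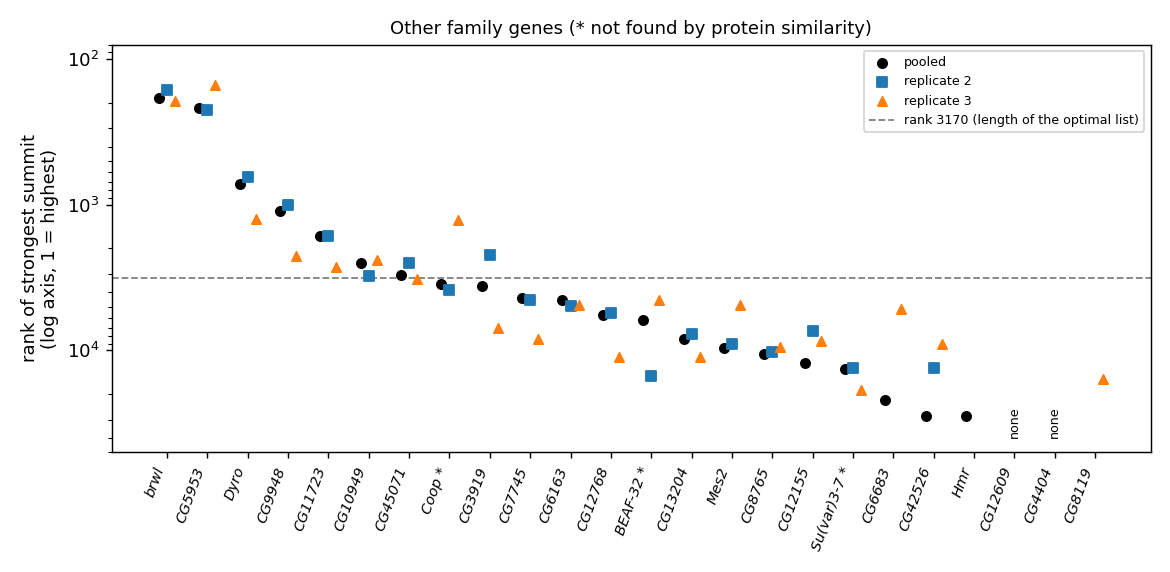
Rank by signal of the strongest summit in the windows of the 21 genes found by protein similarity and of the 3 short-list genes outside that search (starred), on a log axis with rank 1 at the top, for the pooled list and each replicate. brwl and CG5953 lie at ranks 152 to 223 in all 3 lists, and 7 genes have a pooled rank of 3170 or better.

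Outside the family, the genes whose strongest summits had the most similar ranks over the pooled list and the 2 replicates were, for hng2, Mad, org-1 and CG32713, at distances of 0.025 to 0.034 (Euclidean, on log10 ranks). For Adf1 the most alike were Hr4, CG12194 and tank (0.017 to 0.029), for hng3 GCS2beta, Lamtor3 and fws (0.024 each, by 1 summit in a window they share), and for jigr1 mgl, TBPH and Argk1 (0.036 to 0.046). org-1 and CG32713 had the same ranks in every list, and so did CG12194 and tank, so the genes of each pair are not separate matches. With ranks from 2 libraries and their pool, such likeness is a description of peak strength only.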

How the data were processed

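ChIP-seq peaks were analysed for 2 biological replicates of 1 group. The authors deposited 4 peak lists on dm6, and lists on dm3 were not used here. Per the sample file notes, each relaxed list came from alignments and a further file that also went into control-normalized tracks, and the optimal list came from the 3 relaxed ones. Not given in the sources used here are aligner, peak caller and reproducibility threshold. Deposited values are the caller's signal per peak, its -log10 q-value and the summit offset in bp, as the file layout shows. Signal is not comparable between lists, so ranks within a list were used. No counts are given and the depth is unknown.

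Summits were joined to Release 6 sequence and Ensembl release 115 annotation with Python 3.11.15, pandas 2.3.3 and numpy 2.4.6; positions are 1-based on dm6. A summit belonged to a gene when it lay in it or within 2000 bp, and to a TSS within 500 bp. TSSs of transposable elements were left out. Replicate summits within 100 bp were matched. Proteins were translated from the annotated coding sequence and searched with phmmer (HMMER 3.4), since no protein table was used. The assignment of summits was tested on planted positions with known answers. No test was made: there is no contrast between groups, and the members and lists were chosen with earlier results of these data known. The replicates share 1 line, so their spread may be partly technical. Named genes are the members, the genes with the nearest TSS, family genes with an optimal summit, and, for each member with an optimal summit, the 3 genes of most similar ranks that do not hold that summit. The exclusion of genes holding the summit was added after the data were seen, as were the counts around hng2. Genes at other summits, in the short list or with no summit were named after their values were seen.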

Additional observations from a re-analysis of the deposited data

How the results depend on the processing

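No paired analysis was possible because there is 1 group. With 1 replicate left out (the other's own 3170 strongest peaks), the count of members with a strong summit in the window was 3 to 5 against 4, that of summits 7 to 8 against 6, and that of members with one at an own TSS 2 to 3 against 2, with the same range for members and short list together. The short list then gave 0 to 1 against 0, Coop in replicate 3. With the gene body alone, 1 kb or 5 kb to each side, interval overlap or the strongest 1585 optimal peaks, the members with a summit in the window numbered 3 to 4, since hng2 has its summit outside the gene. At own TSSs the count was 1 within 250 bp (jigr1), 1 with the strongest 1585 (hng3) and 0 with the most upstream TSS alone. In all, 28 of 38 recomputed counts were within 1.5 times the reported one. That tally includes short-list counts of 0 against 0. It also includes the TSS counts of members and short list together, which repeat those of the members alone except with the list found by phmmer. The 38 values are therefore not separate results. With all relaxed peaks, 5 and not 3 member summits were found in both replicates. Among the strongest peaks it was 2 within 50 bp and 3 within 200 bp. The list found by phmmer was added after the data were seen. It gave 7 of 21 genes with a summit in the window, against 0 of 4 on the short list. At own TSSs, with the members included, it gave 7 genes against 2. Unknown depth and the end of each list at 30000 peaks limit what a missing summit at Dip3 can show.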
